A study of Mus musculus with 18 samples.

Results

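The Serpin family was taken as every gene of the deposited tables whose name is Serpin followed by a clade letter from a to i and a number, without pseudogenes marked -ps. This gave 64 of the 55401 genes, of which 62 are annotated as protein coding. Counts were found for 51 members and none for 13, and 14 members had 3 or more CPM, which are counts scaled to a common library size, in 3 or more pools. Those described by name are *Serpina1c*, *Serpina1d*, *Serpina1f* and *Serpina10* of clade a, *Serpinb1a*, *Serpinb6a*, *Serpinb8* and *Serpinb9* of clade b, *Serpine2*, *Serpinf1*, *Serpinf2*, *Serping1* and *Serpinh1*. *Serpinf2* is just inside this rule, with 3.11 CPM in its third-highest pool, and the nearest member outside it had 2.53 CPM there.

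The samples were 18 pools of thick ascending limb (TAL) tubules of adult mice labelled C57BL/6J, each pool microdissected from a distinct animal, taken from the cortex (CTAL) or from the outer medulla (MTAL). All mice carried floxed *Cldn10* alleles. In the conditional knock-out (cKO) mice, Cre recombinase was driven by the Ksp-cadherin promoter in the distal nephron, whereas the littermates without Cre are called wild type (WT). CTAL came as 5 WT and 5 cKO pools, and MTAL as 5 WT and 3 cKO pools. The comparisons ask how the segments differ and what the loss of the paracellular channel claudin-10 goes with in each of them.

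Serpins are a family of proteins named for the inhibition of serine proteases. An inhibitory serpin exposes a reactive loop as bait, and when a protease cuts the loop the serpin changes shape and traps the enzyme in a covalent complex. Clade b serpins mostly stay inside the cell, whereas the members of the other clades described here are secreted or, for *Serpinh1*, retained in the endoplasmic reticulum, where its product HSP47 is a chaperone of collagen and inhibits no protease.

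Total counts ranged from 10824299 to 62339939 per pool. *Cldn10*, the targeted gene, was between 383 and 823 CPM in the WT pools and between 151 and 283 CPM in the cKO pools, without overlap, so that it was lowered and not absent. The study kept only cKO pools with *Cldn10* below that of WT, and left out a cKO CTAL pool for a WT-like level. The lack of overlap was therefore partly set by that choice. *Slc12a1*, the sodium-potassium-chloride cotransporter that defines the TAL, was between 11416 and 16187 CPM in all pools. One pool of WT CTAL, replicate 1, has labels that conflict on its genotype. It was kept as WT, and its *Cldn10* level was 446 CPM. The study describes the mice as male, yet *Xist*, the transcript of the inactive X chromosome, was between 6.50 and 8.91 CPM in 7 pools and at most 0.736 CPM in the other 11. The 7 pools with *Xist* were 4 of 5 of WT MTAL (replicates 11, 15, 17 and 19), 2 of 5 of WT CTAL (replicates 3 and 22), 1 of 5 of cKO CTAL (replicate 2) and none of the 3 of cKO MTAL. Genotype in MTAL and *Xist* can therefore be separated in replicate 13 of WT MTAL alone.

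The family is spread over 11 chromosomes of GRCm38, with 24 members on chromosome 12, 16 on chromosome 13 and 14 on chromosome 1. The 4 named clade a members lie in one cluster on chromosome 12, *Serpina10* at 103614786 to 103631444, *Serpina1f* at 103688044 to 103695529, *Serpina1d* at 103763594 to 103773592 and *Serpina1c* at 103894926 to 103904887, all on the minus strand. *Serpina1c* and *Serpina1d* are copies of the gene of alpha-1-antitrypsin, which the mouse holds in several copies. Alpha-1-antitrypsin is known as the plasma inhibitor of neutrophil elastase, and whether these copies share that target was not tested. Their coding sequences are identical at 96.7% of aligned bases, and the stretch that encodes the reactive loop is shown because it is where these copies differ in the bait. It covers coding bases 1087 to 1164 of both genes in the GENCODE transcripts, in the sense direction, with the 5 differing bases in capitals.
Serpina1c: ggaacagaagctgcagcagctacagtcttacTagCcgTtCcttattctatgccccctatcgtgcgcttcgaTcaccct
Serpina1d: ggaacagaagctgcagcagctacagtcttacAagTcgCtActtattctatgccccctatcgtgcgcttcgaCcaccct

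Windows of 100 bases that also occur in another gene made up 58.5% of the *Serpina1c* transcript and 29.3% of that of *Serpina1d*, and none of those of the other members described by name. *Serpina1d* also lies within the annotated body of another *Serpina1* gene on the same strand. Reads of these copies can be exchanged between them in the counting, so that their values are uncertain one by one. *Serpina1f* is more distant, with 52.6% of aligned coding bases identical to *Serpina1c* and 53.7% to *Serpina1d*. *Serpinb6a* overlaps 3 genes and *Serpina1c* overlaps 1 gene on the opposite strand, and whether the counting used the strand is not given in the sources used here.

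*Serpina1c* and *Serpina1d* had higher means in cKO MTAL than in the other groups, and their promoters are shown for that reason. The windows of RefSeq on GRCm38.p6 run from 250 bases before to 50 bases after the start, at chr12:103904901-103905200 for *Serpina1c* and chr12:103773584-103773883 for *Serpina1d*, both on the minus strand. Capitals mark GTTAAT, the half-site of the hepatocyte nuclear factor HNF1, searched on both strands.
Serpina1c: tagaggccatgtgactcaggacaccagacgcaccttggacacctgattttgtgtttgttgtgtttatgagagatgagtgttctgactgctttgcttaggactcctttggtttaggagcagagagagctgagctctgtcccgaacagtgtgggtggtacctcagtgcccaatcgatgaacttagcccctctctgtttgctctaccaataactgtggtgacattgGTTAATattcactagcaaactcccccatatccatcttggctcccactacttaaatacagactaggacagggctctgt
Serpina1d: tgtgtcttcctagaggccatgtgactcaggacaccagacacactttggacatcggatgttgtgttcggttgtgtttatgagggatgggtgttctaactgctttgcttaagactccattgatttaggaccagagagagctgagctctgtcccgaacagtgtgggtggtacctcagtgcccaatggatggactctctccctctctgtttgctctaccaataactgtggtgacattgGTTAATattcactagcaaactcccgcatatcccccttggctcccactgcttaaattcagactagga

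Of 311 aligned positions of the windows, 265 (85.2%) were identical. The motif begins 27 bases before the RefSeq start in *Serpina1c* and 16 bases before it in *Serpina1d*. The GENCODE genes start further downstream, at 103904887 and 103773592, so that these distances depend on the annotation. It was found in 5 of the 6 *Serpina1* genes, in 3 of the 10 named members with a window, and in 7.10% of all 32851 promoters. A match of letters is not a measured binding site.

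Serpins together took from 0.0244% to 0.0461% of the counts of a pool. On the TPM scale, which corrects for transcript length, *Serpinh1* was the highest named member in each group, with means of 108 ± 12.5 TPM in WT CTAL (SD, n = 5), 77.8 ± 12.1 TPM in WT MTAL (n = 5), 129 ± 13 TPM in cKO CTAL (n = 5) and 122 ± 26.6 TPM in cKO MTAL (n = 3). *Serpinb6a*, an intracellular serpin, came next with means between 25.2 and 44.1 TPM. *Serpinb1a*, which inhibits neutrophil proteases, ranged from 6.32 TPM in WT MTAL to 37.5 TPM in cKO CTAL. *Serpinb8*, an intracellular inhibitor of furin, had means between 15.2 and 19.4 TPM, and *Serpinb9*, the inhibitor of granzyme B, between 8.63 and 13 TPM. *Serpina1d* lay among these with 9.39 to 29.0 TPM. The other members described by name had group means of at most 9.98 TPM, and their ranges over the pools overlapped one another. The 50 members below 3 CPM in 3 pools reached at most 8.52 CPM in any pool.

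**Figure D1:**
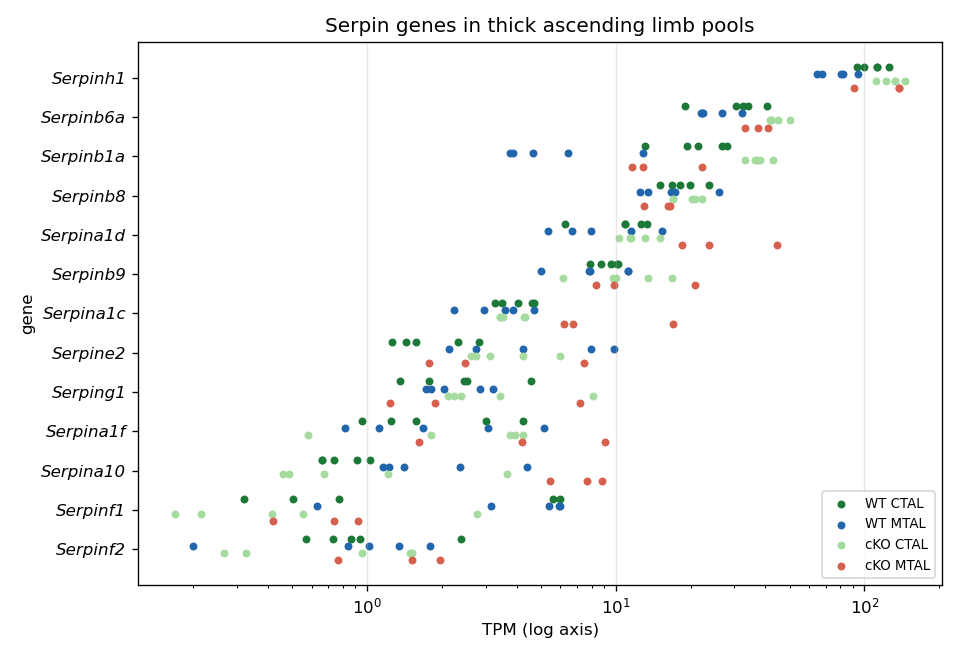
Level of the Serpin genes described by name in TPM (log axis), one point per pool, coloured by group and ordered by the mean over 18 pools. *Serpinh1* is above the other genes in every group, and the mean of *Serpinb1a* is lowest in WT MTAL.

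*Serpinb1a* separated the segments in both genotypes. In WT CTAL the pools had 17.1, 18, 24.4, 34.3 and 37.0 CPM, and in WT MTAL they had 4.89, 5.39, 7.54, 7.79 and 9.91 CPM. In cKO CTAL the values were 32.9, 34.8, 36.3, 38.4 and 46.4 CPM, and in cKO MTAL they were 14.3, 15.4 and 15.6 CPM. Every MTAL pool was below every CTAL pool of the same genotype. *Serpinb1a* was 26.2 ± 9.17 CPM in WT CTAL (SD, n = 5) and 7.10 ± 2.02 CPM in WT MTAL (n = 5), and it fell by 1.90 on the log2 scale (SE 0.25, adjusted p = 0.000119, edgeR quasi-likelihood test with Benjamini-Hochberg adjustment, as for all adjusted p-values here). Within cKO mice *Serpinb1a* fell by 1.25 from CTAL to MTAL (SE 0.15, adjusted p = 0.000881). Each of these calls was kept when any single pool was left out. In the pools without *Xist* the difference in cKO mice was -1.17 (adjusted p = 0.00176), and that in WT mice was -2.02 (adjusted p = 0.00209) with 1 pool of MTAL, which was assumed to vary like the other groups. In the WT pools with *Xist* only, 2 of CTAL and 4 of MTAL, the difference was -1.35 (adjusted p = 0.0662).

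With the knock-out, *Serpinb1a* was higher in MTAL, where all 3 cKO pools exceeded all 5 WT pools. It rose by 1.14 on the log2 scale from WT MTAL to cKO MTAL (SE 0.29, adjusted p = 0.0253). This call was kept in 2 of 8 fits that left out 1 pool and was lost without replicate 16, 18 or 20 of cKO MTAL or replicate 15, 17 or 19 of WT MTAL, with an adjusted p of at most 0.0652. It was also lost with limma on both TPM scales (adjusted p = 0.0989 and 0.0971) and among pools without *Xist* (0.995, adjusted p = 0.0660, with 1 pool of WT MTAL), whereas with a term for pools with *Xist* the difference was 0.92 (adjusted p = 0.0424). In CTAL the same genotypes overlapped, with a log2 fold change of 0.51 (SE 0.19, adjusted p = 0.291). The difference between these genotype effects was 0.61 (SE 0.31, adjusted p = 0.374).

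*Serpina10* encodes the protein Z-dependent protease inhibitor, which acts on coagulation factor X in its active form. It had 7.01, 12.7 and 18.7 CPM in the 3 pools of cKO MTAL. In WT MTAL it had 2.09, 2.32, 2.61, 2.82 and 6.80 CPM, the last in replicate 13, the pool of that group without *Xist*. The CTAL pools had from 0.910 to 1.69 CPM in WT and from 0.609 to 4.10 CPM in cKO, so that no pool of another group reached the level of cKO MTAL. *Serpina10* rose by 1.98 on the log2 scale from WT MTAL to cKO MTAL (SE 0.44, adjusted p = 0.0131) and was higher by 2.98 in cKO MTAL than in cKO CTAL (SE 0.55, adjusted p = 0.0169). It passed the filter of both comparisons only through cKO MTAL, as just 1 pool of WT MTAL and 1 of cKO CTAL reached 3 CPM. The first call was lost without replicate 16 of cKO MTAL (1.58, adjusted p = 0.0728), and the second without that pool or without replicate 9 of cKO CTAL. The second was also lost with limma on log2(TPM + 0.1) (adjusted p = 0.0737). Among pools without *Xist* the genotype difference in MTAL was 0.95 (adjusted p = 0.595, with 1 pool of WT MTAL, assumed to vary like the other groups) and with a term for pools with *Xist* 1.68 (adjusted p = 0.0612), and the segment difference in cKO mice was 3.0 (adjusted p = 0.0119).

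*Serpina1d* was measured at 17.4, 22 and 43.2 CPM in cKO MTAL and at 5.59, 8.21, 8.86, 13.3 and 15.1 CPM in WT MTAL. In CTAL it lay between 6.78 and 14.1 CPM in WT and between 10.7 and 13.6 CPM in cKO. The 3 cKO MTAL pools were the 3 highest of all 18. *Serpina1d* rose by 1.48 from WT MTAL to cKO MTAL (SE 0.34, adjusted p = 0.0146) and was higher by 1.27 in cKO MTAL than in cKO CTAL (SE 0.26, adjusted p = 0.0323). With limma the first call was lost on log2(TPM + 0.1) (adjusted p = 0.0502) and the second on both TPM scales (adjusted p = 0.119 and 0.117). Without replicate 16 of cKO MTAL the genotype difference was 0.98 (adjusted p = 0.120), and among pools without *Xist* it was 0.91 (adjusted p = 0.307), whereas with a term for pools with *Xist* it was 1.29 (adjusted p = 0.0232). The segment difference in cKO mice was lost without that pool or without any one of replicates 4, 7, 9 and 21 of cKO CTAL, and was 1.32 (adjusted p = 0.0183) among pools without *Xist*.

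*Serpina1c* gave 5.67, 6.09 and 16.1 CPM in cKO MTAL, each above the 2.55 to 5.10 CPM of WT MTAL. The log2 fold change was 1.38 (SE 0.41), which did not pass (adjusted p = 0.0553), and neither did that to cKO CTAL of 1.43 (SE 0.36, adjusted p = 0.0691). Both passed without replicate 18 of cKO MTAL (adjusted p = 0.0302 and 0.0139), whereas without replicate 16 they were 0.70 and 0.73 (adjusted p = 0.369 and 0.272). Summed over the 6 *Serpina1* genes, so that an exchange of reads among these 6 leaves the value as it is, the level was 20.4 ± 3.07 CPM in WT CTAL (SD, n = 5), 19.5 ± 5.45 CPM in WT MTAL (n = 5), 21.7 ± 4.03 CPM in cKO CTAL (n = 5) and 48.8 ± 18.3 CPM in cKO MTAL (n = 3). The sums of the 3 cKO MTAL pools were 37.9, 38.6 and 69.9 CPM, the last in replicate 16. *Serpina1f* alone overlapped between all groups, with 1.69 to 9.67 CPM in cKO MTAL and 1.14 to 6.04 CPM in WT MTAL.

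Marker genes of the proximal tubule, which reabsorbs most of the filtered solutes, had their highest median sum in cKO MTAL, 366 CPM, with ranges that overlapped those of the other groups. The 12 genes of the list, of which 8 reached 3 CPM in 3 pools, summed to between 162 and 514 CPM in cKO MTAL, 89.0 and 178 CPM in WT MTAL, 86.2 and 451 CPM in cKO CTAL and 94.0 and 333 CPM in WT CTAL, with *Kap* the highest gene. Replicate 16 of cKO MTAL, with the highest *Serpina10*, *Serpina1c* and *Serpina1d*, had the lowest of the 3 sums, 162 CPM, within the range of WT MTAL. *Slc27a2*, a fatty acid transporter, had 43.7, 90.5 and 107 CPM in cKO MTAL, above the 17.6 to 37.5 CPM of WT MTAL. *Slc34a1*, the phosphate cotransporter, had 5.63, 22 and 31 CPM against 1.53 to 6.66 CPM, and *Slc5a2*, a glucose cotransporter, 0.211, 0.464 and 1.04 CPM against 0.0504 to 0.176 CPM. Apart from *Slc27a2* and *Slc5a2*, the genes of the list overlapped between the MTAL groups. *Slc7a13* had 2.89, 4.81 and 5.53 CPM in cKO MTAL, within the 1.86 to 8.76 CPM of WT MTAL. *Cubn* had 1.90 to 10.8 CPM against 2.42 to 5.04 CPM. The 10 endothelial genes summed to between 207 and 326 CPM in cKO MTAL and between 389 and 579 CPM in WT MTAL. The 10 genes of the tubular injury list, with *Spp1* the highest, summed to between 2317 and 9244 CPM in cKO MTAL and between 1213 and 1461 CPM in WT MTAL, without overlap. *Spp1* alone had 1918 to 7830 CPM in cKO MTAL and 1034 to 1244 CPM in WT MTAL. *Clu*, *Lcn2*, *Krt18*, *Krt20* and *Sox9* also separated these groups, whereas *Vcam1*, *Cd44*, *Krt8* and *Havcr1* overlapped. The part of these 3 lists in the differences of MTAL between the genotypes was not tested. In bulk samples, more cells of a type and more RNA per cell cannot be told apart.

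**Figure D2:**
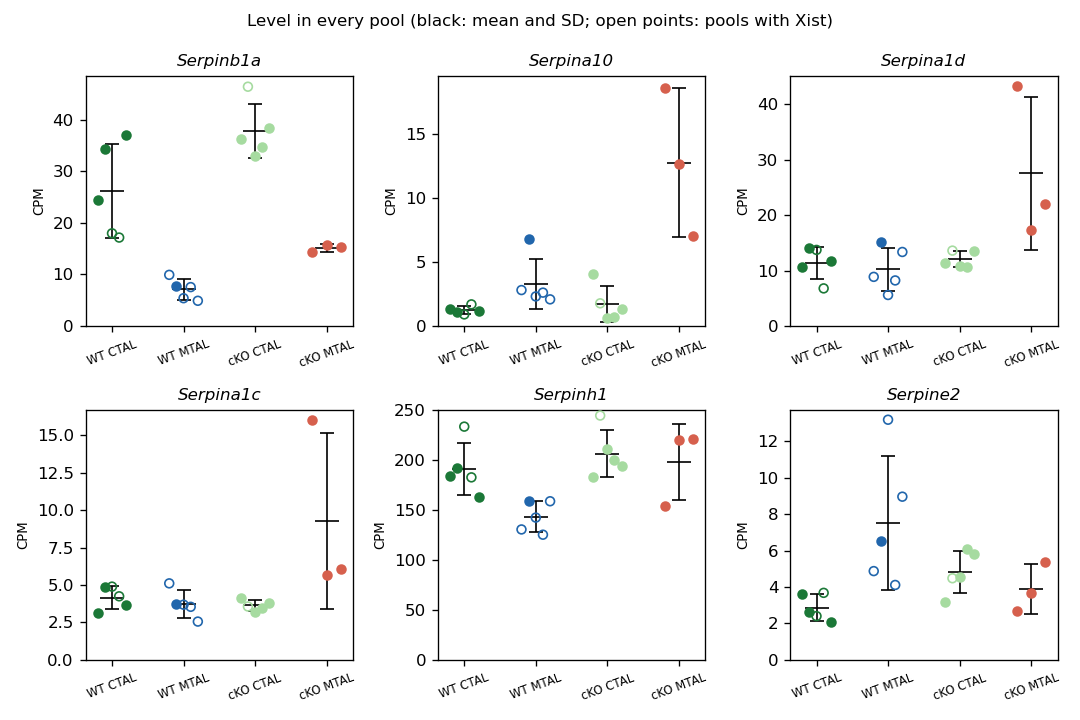
CPM of 6 Serpin genes in each pool by group, with the mean and SD in black and pools with *Xist* as open points (axes start at 0). *Serpinb1a* is lower in MTAL than in CTAL of the same genotype, and *Serpina10* and *Serpina1d* are highest in the 3 cKO MTAL pools.

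*Serpinh1* had 125, 130, 142, 159 and 159 CPM in WT MTAL and 163, 182, 184, 192 and 233 CPM in WT CTAL. The groups did not overlap, and *Serpinh1* fell by 0.42 from CTAL to MTAL (SE 0.10, adjusted p = 0.0157), a call kept in 10 of 10 fits without 1 pool. In cKO MTAL it had 154, 219 and 221 CPM, of which the lowest lay within the WT MTAL range. It rose by 0.52 from WT MTAL to cKO MTAL (SE 0.13, adjusted p = 0.0293), and the call was kept in 3 of 8 fits without 1 pool and lost without replicates 18 or 20 of cKO MTAL or 11, 15 or 17 of WT MTAL, with an adjusted p of up to 0.115. It was also lost with limma on both TPM scales (adjusted p = 0.0986 and 0.0981). With a term for pools with *Xist* the difference was 0.60 (adjusted p = 0.0146). Within cKO mice *Serpinh1* differed by 0.01 between segments (SE 0.13, 95% interval from -0.25 to 0.27, adjusted p = 0.973). Among pools without *Xist* the segment difference in WT mice was -0.16 (adjusted p = 0.807) and the genotype difference in MTAL 0.36 (adjusted p = 0.350), each with 1 pool of WT MTAL.

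The collagen list, with the collagens and the enzymes that fold them beside HSP47, had 20 of its 21 genes tested in cKO MTAL against WT MTAL. Of these, 4 rose, none fell, and none reached a log2 fold change of 1, where 7.01% of all genes were called and 4.44% were called higher. They were *Col4a1* (0.75), *Col4a2* (0.68) and *Col18a1* (0.88), which encode chains of basement membrane collagens, and *Ppib* (0.39), a prolyl isomerase of the endoplasmic reticulum. The median over the list was 0.33, against 0.00 over all genes tested. Between WT MTAL and WT CTAL, 1 of 18 rose (*Plod2*, a collagen lysyl hydroxylase, 0.74) and 1 fell (*Ppib*, -0.42). *Col4a6* was higher by 1.49 in cKO MTAL than in cKO CTAL, the 1 call among 19 genes, and none of 17 was called between the CTAL groups.

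*Serpine2* encodes protease nexin-1, an inhibitor of thrombin and plasminogen activators. It had 4.11, 4.87, 6.50, 8.96 and 13.2 CPM in WT MTAL, above the 2.06, 2.39, 2.61, 3.59 and 3.67 CPM of WT CTAL. *Serpine2* rose by 1.40 from CTAL to MTAL (SE 0.33, adjusted p = 0.0142), and the call was kept in 10 of 10 fits without 1 pool. It was lost on the TPM scale, in the pools with *Xist* (1.37, adjusted p = 0.314) and in those without (1.26, adjusted p = 0.291). In cKO mice the pools overlapped, with 2.68 to 5.39 CPM in MTAL and 3.15 to 6.06 CPM in CTAL (log2 fold change -0.22, SE 0.34, adjusted p = 0.772). The genotype differences were -0.90 in MTAL (adjusted p = 0.237) and 0.76 in CTAL (adjusted p = 0.186), and their difference of -1.66 (SE 0.50) did not pass (adjusted p = 0.111).

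*Serpinf1* encodes pigment epithelium-derived factor, a secreted serpin without protease inhibition. It had 3.20 to 4.02 CPM in the 7 pools with *Xist* and 0.10 to 0.592 CPM in the 11 pools without, with no value between. The pools of both segments and both genotypes followed this division. One clade b member that is not named had counts in those 7 pools and none in the other 11. Over the 12586 genes that reached 3 CPM in 3 or more pools, 18 (0.143%) were higher in the 7 pools without overlap and 25 were lower. *Serpinf1* fell by 2.86 from WT MTAL to cKO MTAL (SE 0.71, adjusted p = 0.0242), with replicate 13 of WT MTAL at 0.422 CPM, within the 0.232 to 0.592 CPM of cKO MTAL. It passed the filter of this comparison only through pools of WT MTAL. With a term for pools with *Xist* in a fit of all 18 pools the difference was 0.26 (adjusted p = 0.796). The call was also lost when replicate 16 or 20 of cKO MTAL or 15, 17 or 19 of WT MTAL was left out, with an adjusted p of up to 0.0951.

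**Figure D3:**
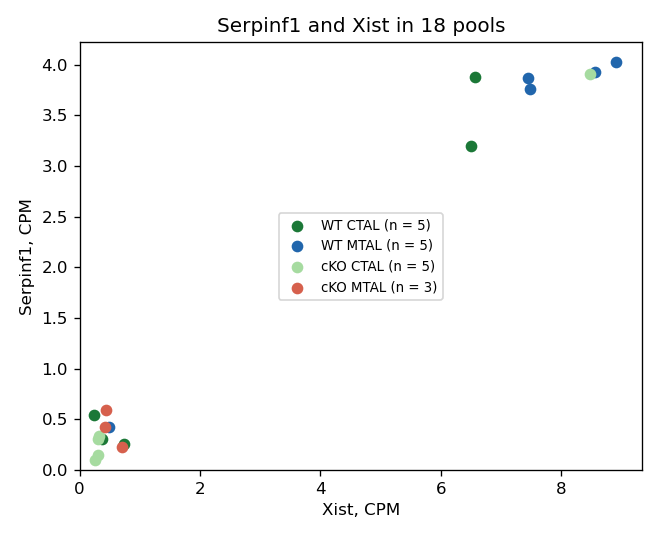
*Serpinf1* against *Xist*, both in CPM, in 18 pools coloured by group. The 7 pools with *Xist* above 6 CPM have 3.20 to 4.02 CPM of *Serpinf1* and the other 11 at most 0.592 CPM, whatever their group.

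None of the remaining named members was called in a comparison. *Serpinb8* had 25.6, 34.4 and 35.4 CPM in cKO MTAL, all under the 36.5 to 56.5 CPM of WT MTAL, with a log2 fold change of -0.46 (SE 0.19, adjusted p = 0.143). *Serpinb6a* and *Serpinb9* overlapped in all 4 comparisons. *Serping1*, the C1 inhibitor of the complement and contact systems, was 9.97 CPM in replicate 2 of cKO CTAL and 8.14 CPM in replicate 18 of cKO MTAL and at most 5.32 CPM elsewhere. The 10 genes of the tubular injury list summed to 5054 CPM and 9244 CPM in those pools, the highest value of each group. The proximal tubule list (451 and 514 CPM) and the 10 genes of fibroblasts and pericytes (93.1 and 95.7 CPM) also had their highest sums of each group there. Replicate 2 of cKO CTAL was also the highest of its group for the thin limb, distal convoluted tubule and intercalated cell lists. Replicate 18 of cKO MTAL was so for the immune cell list. The part of these lists in the level of *Serping1* was not tested. *Serpinf2*, the plasmin inhibitor alpha-2-antiplasmin, was at most 4.38 CPM and passed the filter of none of the 4 comparisons.

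Between WT MTAL and WT CTAL, 11 members were tested and 3 were called at an adjusted p under 0.05, 1 higher and 2 lower, where 6.87% of 11650 genes were called, 2.76% higher and 4.1% lower. With a log2 fold change of at least 1 as well, 2 were differentially expressed, against 2.32% of the genes. The median log2 fold change of the members was -0.07, against 0.02 over all genes. The groups did not overlap for 3 members, against 7.3% of the genes.

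Between cKO MTAL and WT MTAL, 5 of 13 members were called, 4 higher and 1 lower, where 7.01% of 12060 genes were called, 4.44% higher and 2.57% lower. The rule with a log2 fold change of at least 1 kept 4 of these 5, against 3.74% of the genes. *Serpina10* and *Serpinf1* are among the 4 and passed the filter only through the group where they were high, cKO MTAL and WT MTAL. The median of the members was 0.52, against 0.00 over all genes, and 10 of 13 had a positive value. For 5 members the groups did not overlap, against 15% of the genes. Without replicate 16 of cKO MTAL the number differentially expressed was 0, where 3.06% of 11860 genes were. The pools without *Xist* hold 1 pool of WT MTAL, so no count is given for them.

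Between cKO CTAL and WT CTAL, none of 10 members was called by edgeR's quasi-likelihood test, where 1.22% of 11702 genes were and 0.47% were differentially expressed. The groups overlapped for all 10, where 3.13% of the genes did not overlap. At an unadjusted p under 0.05 there were 3, *Serpine2*, *Serpinb1a* and *Serpinb6a*, and both DESeq2 fits and the likelihood ratio test found 0 differentially expressed members. Between cKO MTAL and cKO CTAL, 3 of 12 members were called, 2 higher and 1 lower, where 1.75% of 12044 genes were called, 1.12% higher and 0.631% lower. All 3 were differentially expressed, against 0.938% of the genes. Of these, *Serpina10* passed the filter only through cKO MTAL. The groups did not overlap for 6 members, against 10.8%.

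None of 14 members had a genotype effect that differed between the segments in the quasi-likelihood test, where 0.286% of 12586 genes did. At an unadjusted p under 0.05 there were 5. The lowest adjusted p-values were those of *Serpina1c* (1.57, SE 0.44) and *Serpina1d* (1.41, SE 0.40), both 0.0949. The likelihood ratio tests of edgeR and DESeq2 each called 3, *Serpina1c*, *Serpina1d* and *Serpine2*, where they called 2.68% and 2.80% of the 12586 genes. Without replicate 18 of cKO MTAL, *Serpina1c* and *Serpina1d* passed the quasi-likelihood test (adjusted p = 0.0168 and 0.0165), and without replicate 13 of WT MTAL *Serpina1d* did (adjusted p = 0.0498). Without replicate 16 of cKO MTAL the differences were 0.89 and 0.91 (adjusted p = 0.299 and 0.283), and with a term for pools with *Xist* the adjusted p-values of *Serpina1c* and *Serpina1d* were 0.145 and 0.174. The comparisons share groups and are not independent of one another.

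**Figure D4:**
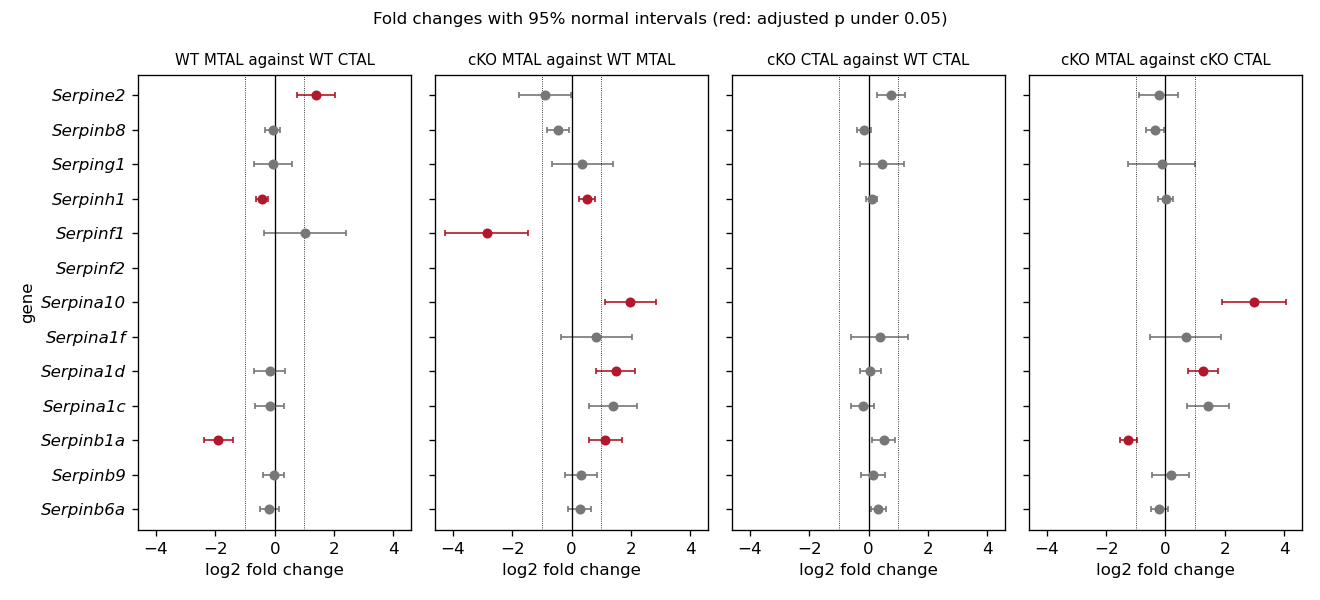
Log2 fold change of the Serpin genes described by name in 4 comparisons (points) with bars of the 95% normal interval, red where the adjusted p was under 0.05 and dotted lines at a log2 fold change of 1 in either direction. Genes without a point did not pass the filter on low counts, and *Serpinb1a* is called in 3 of the panels.

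Of the serine proteases that serpins can meet, *Klk1*, tissue kallikrein, had its group means in the same order as those of *Serpinb1a*. It fell by 2.20 from WT CTAL to WT MTAL, rose by 1.33 from WT MTAL to cKO MTAL and was lower by 1.37 in cKO MTAL than in cKO CTAL, with adjusted p-values of at most 0.00153. From WT CTAL to WT MTAL, 1 of 10 tested proteases rose (*St14*, matriptase, 0.37) and 2 fell (*Klk1* and *Tmprss2*, -0.59). *Klk1* was the 1 call of 12 in cKO MTAL against WT MTAL, *Klk1* and *Tmprss2* (-0.60) were the 2 of 11 between the cKO segments, and none of 9 was called between the CTAL groups. Among cathepsins, *Ctsc*, which activates granule serine proteases, rose by 1.13 from WT MTAL to cKO MTAL and by 0.59 from WT CTAL to cKO CTAL. The shares called over all genes were 6.87% between the WT segments, 7.01% between the MTAL groups, 1.22% between the CTAL groups and 1.75% between the cKO segments, and stand beside the counts of each list. The calls were 2 of 11 higher in cKO MTAL (*Ctsc* and *Ctsd*, 0.70), 2 of 12 higher in cKO CTAL (*Ctsc* and *Lgmn*, 0.39), 2 of 11 lower in WT MTAL (*Ctsc*, -0.51, and *Ctsd*, -0.31) and 0 of 12 between the cKO segments.

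Other protease inhibitors and receptors that clear serpin complexes were tested gene by gene. From WT CTAL to WT MTAL, 1 of 12 rose (*Timp2*, a metalloproteinase inhibitor, 0.67) and 3 fell. These were *Wfdc2* (-1.53), a gene with domains of the whey acidic protein type, *Cstb*, a cathepsin inhibitor (-0.51), and *Lrpap1*, a chaperone of clearance receptors (-0.29). *Wfdc2* rose by 1.64 from WT MTAL to cKO MTAL, the 1 call of 13. None of 11 was called in CTAL, and *Timp2* was the 1 of 12 that differed between the cKO segments (1.25).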

How the data were processed

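Poly-A RNA of 18 tubule pools had been sequenced with paired ends after a strand-specific preparation. Reads were cleaned with fastp, and DRAGEN was used by the authors for mapping on mm10 and for gene quantification. The submitters' processing notes name FastQC, Trimmomatic, DRAGEN and Picard. The deposited estimated counts are not normalized, and the deposited TPM values are scaled for transcript length and depth. Before testing, estimated counts were rounded to whole numbers. Levels are CPM on TMM library sizes over all pools, and counts set their precision.

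The filter asked for 3 CPM in 5 pools, and in 3 pools for comparisons with cKO MTAL. The main test was edgeR's quasi-likelihood F test (edgeR 4.0.16 in R 4.3.3), with each comparison on its own groups. The difference of genotype effects was tested over all 18 pools. Genes with an adjusted p under 0.05 were called, and those with a log2 fold change of 1 or more in either direction were also differentially expressed. The standard error was taken from the fold change and the F value. The alternatives used limma (version 3.58.1), DESeq2 (version 1.42.0), other normalizations, filters and pool sets. The fits on pools without or with *Xist* only, and one regrouping of WT CTAL replicate 1, were chosen after seeing the data. The scripts were tested on simulated data.

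Members were matched by gene identifier to GENCODE M21, 64 of 64. Members that reached 3 CPM in 3 or more pools were named, except 1 that is not reported here, and of the 4 pathway lists (serine proteases, cathepsins, other inhibitors and receptors, collagen chaperoning) genes past the thresholds. Members and lists were chosen with earlier results of these data known. Of the lists of other cell types, summed CPM in the pools ranged from 40468 to 73349 for the thick ascending limb, 479 to 1163 for the thin limb, 107 to 263 for the distal convoluted tubule, 79.2 to 1032 for principal cells, 22.7 to 297 for intercalated cells, 207 to 624 for endothelium, 135 to 271 for immune cells, 42.8 to 101 for fibroblasts and pericytes and 1213 to 9244 for tubular injury. The study excluded 3 further pools, which were not analysed here.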

Additional observations from a re-analysis of the deposited data

Results flagged for a closer look

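Of 42 sets of one member in one group of 5 pools, 6 held a pool far from the other 4 by Dixon's criterion, which chance meets in about 1 of 20 sets. *Serpinf1* was 0.422 CPM in replicate 13 of WT MTAL, where the others had 3.76 to 4.02 CPM. *Serpinf1* was also 3.90 CPM in replicate 2 of cKO CTAL, where the others had 0.10 to 0.335 CPM. The same pool had 9.97 CPM of *Serping1* against 2.70 to 3.82 CPM. *Serpina10* was 6.80 CPM in replicate 13 of WT MTAL against 2.09 to 2.82 CPM. *Serpinf2* was 4.38 CPM in replicate 22 of WT CTAL against 1.04 to 1.67 CPM. *Serpinb6a* was 30.1 CPM in replicate 4 of cKO CTAL against 37.8 to 40.5 CPM.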

How the results depend on the processing

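The number of differentially expressed members between WT MTAL and WT CTAL was 2. It was 1 with limma on log2(TPM + 1) and 1 on log2(TPM + 0.1), where 1.61% and 2.05% of all genes were differentially expressed. In pools with *Xist* only it was 0 (0.971% of the genes). With a term for pools with *Xist* it was 3 (2.55%), where *Serpina10* was added. It was 2 in each of the fits that left out 1 pool. No count is given for pools without *Xist* in comparisons with WT MTAL, since they hold 1 pool of that group. Between cKO MTAL and WT MTAL the number was 4. It was 2 with limma on log2(TPM + 1) and 1 on log2(TPM + 0.1), where 1.86% and 1.84% of all genes were differentially expressed. Without 1 pool it was from 0 to 4, and the share of all genes from 2.18% to 5.09%. It was 2 with a term for pools with *Xist* (4.27%). With that term *Serpinf1* reversed to 0.26. Between cKO MTAL and cKO CTAL the number was 3, where 0.938% of all genes were differentially expressed. The likelihood ratio tests of edgeR and DESeq2 each gave 5, with shares of 3.35% and 3.22%. It was 1 on log2(TPM + 0.1) (0.448%) and 5 with the *Xist* term (3.02%). Without 1 pool it was from 1 to 4, and the share from 0.595% to 4.32%. The number with a genotype effect that differed between segments was 0. It was 3 with each likelihood ratio test, where 2.68% (edgeR) and 2.80% (DESeq2) of all genes were called. Without 1 pool it was from 0 to 2, and the share from 0.119% to 4.55%. Between cKO CTAL and WT CTAL it was 0 under all 21 alternatives. Over single members, 1174 of 1250 values kept their side of the threshold, 27 passed it newly and 48 no longer passed it. The direction reversed for 1 value that the main fit had called. Direction was not compared for values called in neither fit, and the cause of the changes was not tested. With WT CTAL replicate 1 counted as cKO CTAL, the numbers were 2 between the WT segments, 0 between the CTAL groups, 4 between the cKO segments and 0 for the difference of effects. Over all genes the shares were 1.74%, 0.393%, 1.48% and 0.135% in the same order. No paired analysis was possible because no replicate number is shared between groups. The 3 pools of cKO MTAL limit every comparison that holds them, and members of a few CPM limit precision.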
